A study of Homo sapiens with 24 samples.

Results

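The genes encoded by human mitochondrial DNA were taken as all genes whose symbol starts with MT-. They numbered 37 of the 78724 gene IDs counted in every library, and comprised 13 mRNAs, 2 rRNAs and 22 tRNAs. All 37 matched a GENCODE release 29 gene on chromosome M of GRCh38. Their RNA was measured by bulk poly(A)-type mRNA sequencing in 2 biliary tract cancer lines. HuCCT1 is an intrahepatic cholangiocarcinoma line and was grown in RPMI-1640. OCUG-1 is a gallbladder cancer line and was grown in DMEM. Treatment lasted 72 h in 4 arms. The vehicle arm received matched DMSO, the solvent of both drugs, at 0.1% or less. Of the drug arms, a low-dose arm received sorafenib at 1.25 µM, a high-dose arm received it at 10 µM, and the combination arm received the low dose together with 1 µM IACS-010759. Sorafenib is a multikinase inhibitor, and IACS-010759 inhibits complex I of the respiratory chain. The labels give 3 independent biological replicates of each arm in each line, hence 8 groups and 24 libraries. IACS-010759 was never given by itself, and its values here are always on top of 1.25 µM sorafenib. Each cancer is represented by 1 line in its own medium, so line and medium cannot be told apart.

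Mitochondrial DNA is transcribed from both strands as long precursors that cover most of the circle. The mRNAs and rRNAs are mostly flanked by tRNAs, and excision of the tRNAs at their ends releases the RNAs between them. The mRNAs encode core subunits of respiratory complexes I, III and IV and of ATP synthase, and every other subunit comes from the nucleus. The rRNAs form the mitochondrial ribosome that translates those mRNAs. RNAs from one precursor can reach different levels through separate processing and decay.

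Of the 13 mRNAs, 12 lay on the + strand of the reference, which is read from the heavy-strand promoter, and MT-ND6 lay on the - strand. Both rRNAs and 14 tRNAs lay on the + strand, and 8 tRNAs (MT-TQ, MT-TA, MT-TN, MT-TC, MT-TY, MT-TS1, MT-TE and MT-TP) lay on the - strand. The following GRCh38 sequences, from GENCODE release 29 transcripts, show how tightly these genes abut, since reads of a long mRNA or rRNA can reach a neighbouring tRNA. In the first, chrM:3210-3304 on the + strand, the last 20 bases of MT-RNR2 are in lower case and MT-TL1, the tRNA for leucine that follows it without a gap, is in capitals.
MT-RNR2 end and MT-TL1: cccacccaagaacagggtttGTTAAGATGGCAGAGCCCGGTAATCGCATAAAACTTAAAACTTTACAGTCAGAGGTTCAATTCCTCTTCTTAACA
In the second, chrM:12118-12356 on the + strand, MT-TH and MT-TL2 are in capitals. These tRNAs lie between MT-ND4 and MT-ND5, and each was called in 6 of the 8 comparisons made within the lines. The lower-case letters are 20 bases of MT-ND4, then MT-TS2, then 20 bases of MT-ND5.
MT-TH to MT-TL2: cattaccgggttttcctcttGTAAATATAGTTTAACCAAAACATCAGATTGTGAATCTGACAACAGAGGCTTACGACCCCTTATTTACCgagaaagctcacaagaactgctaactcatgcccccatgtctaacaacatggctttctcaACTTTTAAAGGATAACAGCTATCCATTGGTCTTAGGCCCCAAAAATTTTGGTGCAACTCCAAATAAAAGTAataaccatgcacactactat
The third is MT-TP, the tRNA for proline, at chrM:15956-16023 on the - strand, shown because it gave the largest share of tRNA counts in OCUG-1. No base of it is in capitals.
MT-TP: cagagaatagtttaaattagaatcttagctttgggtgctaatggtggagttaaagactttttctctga
The last pair shows where genes counted here as mRNAs share bases. Values are per gene, so the members of such a pair are not shown to be separate RNAs. The capitals mark the 46 bases that MT-ATP8 shares with MT-ATP6 (window chrM:8503-8572) and the 7 that MT-ND4L shares with MT-ND4 (window chrM:10737-10766), all on the + strand.
MT-ATP8 end: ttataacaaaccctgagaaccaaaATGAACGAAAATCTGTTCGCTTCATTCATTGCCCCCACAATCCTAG
MT-ND4L end: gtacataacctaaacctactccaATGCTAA

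Total counts ranged from 18238834 to 30693736 in the HuCCT1 libraries and from 14388855 to 24019011 in the OCUG-1 libraries. The biliary keratin KRT19 stood at 1288 to 2092 CPM in HuCCT1 and at 142 to 968 in OCUG-1, whereas KRT7 stood at 3345 to 6351 and at 6.44 to 17.4. Of the immune markers listed, PTPRC and CD3E stayed at or below 1.06 CPM in every library, and the value of CD14 is not given here. The endothelial marker PECAM1 reached 7.38 in OCUG-1. Values of the listed markers KRT8, KRT18, EPCAM, SOX9, CDH5, PDGFRB and DCN are not given here either. COL1A1, a fibroblast marker, stood at 86.5 to 103 CPM in OCUG-1 vehicle and at 25.4 to 33.9 in its 10 µM arm, and the part of such markers in the results was not tested. In HuCCT1, replicate 3 of the vehicle, 1.25 µM and 10 µM arms stood apart with the lowest mitochondrial share of its arm, and results were also computed without replicate 3 of all HuCCT1 arms. After a filter on low counts, 34 of the 37 genes were tested in HuCCT1 and 30 in OCUG-1. MT-TF, MT-TA and MT-TS2 were tested in neither line, and MT-TQ, MT-TW, MT-TS1 and MT-TD were tested in HuCCT1 only. The calls below come from the quasi-likelihood test of edgeR over all genes that passed the filter, at a Benjamini-Hochberg adjusted p under 0.05. CPM is the standard unit of a count relative to the library total, here after TMM scaling within each line.

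Mitochondrial genes held 7.08% to 21.8% of all counts in the HuCCT1 libraries and 4.71% to 13.6% in the OCUG-1 libraries. The 13 mRNAs took 10.4, 12.6 and 6.32% of counts in the HuCCT1 vehicle libraries. In 1.25 µM sorafenib they took 20.3, 18.0 and 11.6%, in 10 µM 8.88, 10.8 and 7.16%, and in the combination 11.2, 9.34 and 9.91%. The 1.25 µM arm of HuCCT1 held the highest mean share, although its lowest library lay inside the vehicle range. In OCUG-1 the mRNAs took 11.9, 9.74 and 10.6% in vehicle, 11.3, 9.30 and 8.18% in 1.25 µM, 3.84, 3.35 and 3.35% in 10 µM, and 3.69, 5.06 and 4.07% in the combination. Every OCUG-1 library of the last 2 arms lay below every library of the first 2. In these bulk libraries, fewer cells holding these RNAs and less of them per cell cannot be told apart.

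The rRNA shares followed another order over the arms. They took 1.66, 1.34 and 1.21% of counts in OCUG-1 vehicle, 1.81, 1.43 and 1.18% in 1.25 µM, 2.38, 2.28 and 2.58% in 10 µM, and 1.00, 1.40 and 1.03% in the combination. The 10 µM libraries of OCUG-1 were thus the highest of that line for rRNA and among the lowest for mRNA. In HuCCT1 the rRNA share lay between 0.739 and 1.44% in all 12 libraries. As the libraries were made by an mRNA workflow, rRNA and tRNA values describe only what that workflow captured.

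The ratio of mRNA to rRNA counts, a value that no scaling between libraries can move, separated the arms more sharply. In HuCCT1 it was 7.78, 9.21 and 8.55 in vehicle and 14.1, 13.8 and 14.6 in 1.25 µM sorafenib, or 8.51 ± 0.715 against 14.2 ± 0.397 (SD, n = 3). The groups did not overlap, and the 1.25 µM mean was 1.67-fold higher. In the combination the ratio was 8.28, 8.75 and 8.56, which lay within the vehicle range and below every 1.25 µM library. In 10 µM it was 11.0, 13.5 and 6.27, a spread that covered the vehicle range because of replicate 3. In OCUG-1 the ratio was 7.18, 7.25 and 8.78 in vehicle and 6.24, 6.52 and 6.96 in 1.25 µM, all below vehicle by a small margin. It was 1.61, 1.47 and 1.30 in 10 µM and 3.68, 3.61 and 3.94 in the combination. Against vehicle, the 10 µM mean was 5.3-fold lower and the combination mean 2.06-fold lower, without overlap. The ratio is a sum over the chosen genes and is given without a test.

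**Figure D1:**
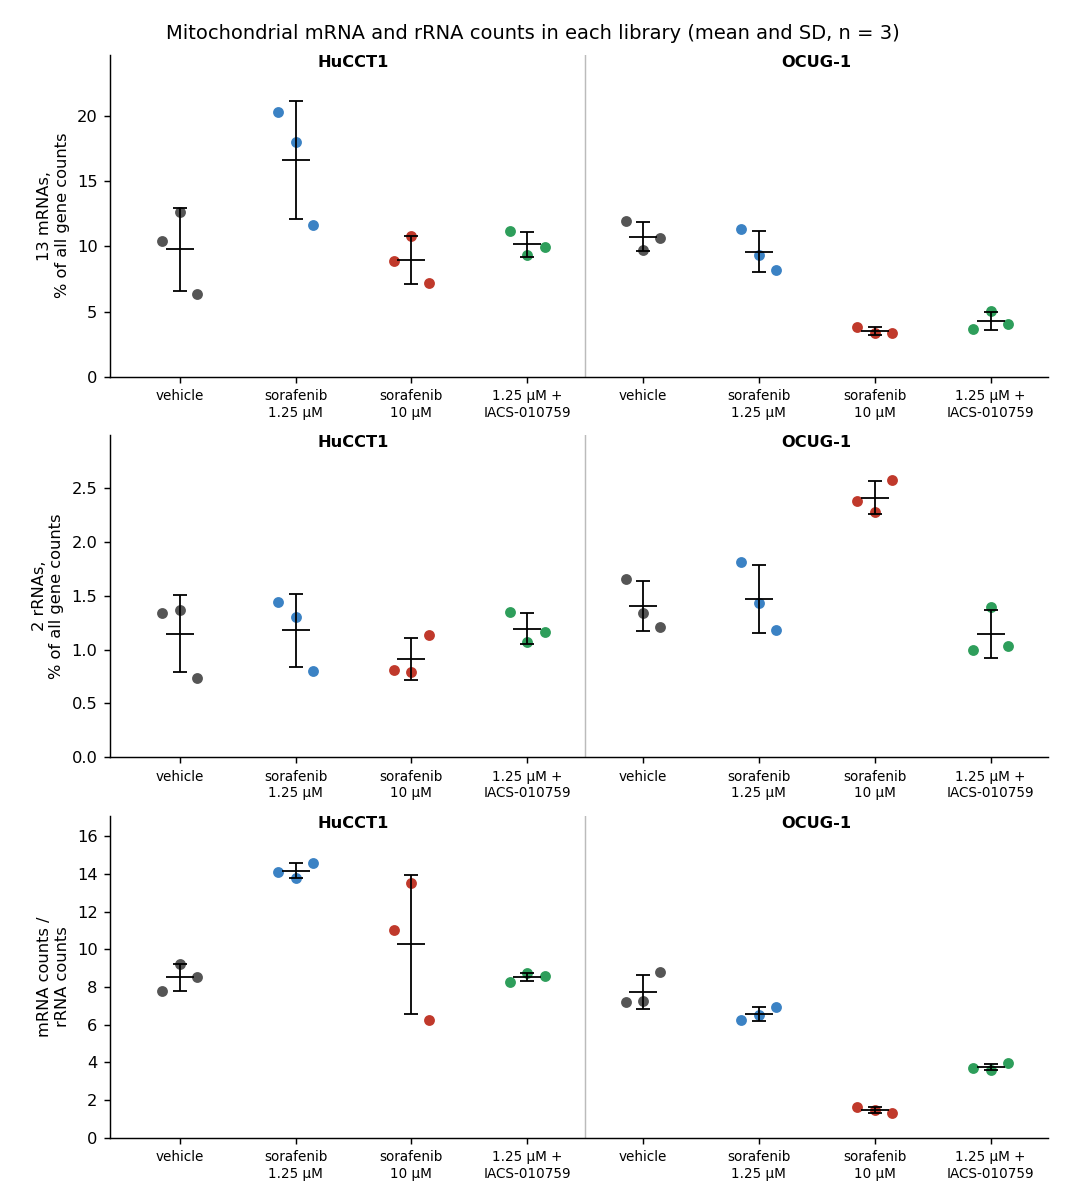
Share of all counts taken by mitochondrial mRNAs (percent, top), by the 2 rRNAs (percent, middle) and the ratio of mRNA to rRNA counts (bottom) in each library of the 8 groups, with the mean and SD (n = 3). The 3 OCUG-1 10 µM libraries combine low mRNA shares (3.35 to 3.84%) with the highest rRNA shares of that line (2.28 to 2.58%), and the HuCCT1 1.25 µM libraries hold the highest ratios (13.8 to 14.6).

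In vehicle, the cytochrome oxidase mRNAs were the most abundant per length in both lines. Per kilobase of transcript, MT-CO1 stood at 14768 ± 4688 CPM in HuCCT1 and 19801 ± 1009 in OCUG-1 (SD, n = 3). MT-CO2 stood at 12735 ± 4414 and 18574 ± 2441, and MT-CO3 at 12182 ± 4129 and 15152 ± 183. At the other end of the order were MT-RNR1 (2048 in HuCCT1), MT-ATP8 (2021) and MT-ND6 (1527), and in OCUG-1 MT-ND3 (2283), MT-RNR1 (2090) and MT-ATP8 (1206). MT-ATP8 is 207 bases long and shares 46 of them with MT-ATP6. How reads over shared bases were counted is not given, and the part of this in its low rank was not tested. In HuCCT1 the sole neighbours in this order that did not overlap were MT-RNR2 (6058) and MT-ND3 below it. The order in OCUG-1 changed at 10 µM, where MT-RNR2 ranked highest at 13709 ± 1217 CPM per kilobase, above MT-CO1 at 6494 ± 338 without overlap.

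Between the vehicle arms of the lines, 3 of the 13 mRNAs differed, all lower in OCUG-1 than in HuCCT1 (68.3% of all genes tested differed, 32.7% being lower there). On a scale common to both lines, MT-ND1, a core membrane subunit of complex I, stood at 8896, 10314 and 4675 CPM in HuCCT1 and at 4915, 3214 and 3696 in OCUG-1. Its ranges overlapped slightly, and the log2 difference was -1.01 ± 0.27 (SE, edgeR adjusted p = 0.00272). MT-ATP8, a small membrane subunit of ATP synthase, differed by -0.91 ± 0.30, and MT-ND4L, a further complex I subunit, by -0.75 ± 0.24. The rRNAs differed by -0.14 (MT-RNR1) and 0.19 (MT-RNR2) and did not pass the test (0 of 2 at an unadjusted p under 0.05 and 0 by DESeq2).

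Of 19 tRNAs tested between the vehicle arms, 16 differed, 7 higher and 9 lower in OCUG-1 (35.6% and 32.7% of all genes). MT-TR, the arginine tRNA, stood at 2.46, 3.16 and 0.862 CPM in HuCCT1 vehicle and at 20.8, 18.3 and 21.1 in OCUG-1, a log2 difference of 3.23 ± 0.39. MT-TL2, a leucine tRNA, stood at 0.644, 1.64 and 0.635 against 3.89, 3.91 and 3.82. MT-TL1, the other leucine tRNA, went the opposite way, with 46.0, 48.8 and 18.5 against 9.42, 8.28 and 9.35 (log2 difference -2.07 ± 0.32). None of these 3 overlapped between the lines. The share of all genes without overlap was not computed for this comparison, so their separation is not counted as a result. MT-TW, the tryptophan tRNA, had 39, 17 and 9 counts in HuCCT1 vehicle and was at 0 counts in all 3 OCUG-1 vehicle libraries, so no fold is given.

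In HuCCT1, 1.25 µM sorafenib raised 7 of the 13 mRNAs over vehicle and lowered none (9.98% of all genes rose and 8.5% fell). They were MT-CO1 and MT-CO2 of complex IV, MT-ND4, MT-ND4L, MT-ND5 and MT-ND6 of complex I, and MT-ATP6, the proton channel subunit of ATP synthase. The median log2 change of the 13 was 0.85, beside 0.003 for all genes tested. No rRNA passed the test, with 0.21 for MT-RNR1 and 0.19 for MT-RNR2 (0 of 2 at an unadjusted p under 0.05 and 0 by DESeq2).

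MT-CO1, the catalytic subunit of cytochrome oxidase, stood at 22827, 29974 and 15517 CPM in vehicle and at 63819, 56075 and 34185 in 1.25 µM. Every treated library lay above every vehicle library, and the log2 change was 1.17 ± 0.24 (SE, edgeR adjusted p = 0.00454), or 2.26-fold. MT-CO2, which takes electrons from cytochrome c, went from 8794, 11687 and 5651 to 23440, 19639 and 12656 CPM (1.09 ± 0.27, edgeR adjusted p = 0.0119), also without overlap. These were the 2 of 13 mRNAs whose treated libraries all lay above vehicle, against 17.2% of all genes. MT-CO3, the remaining complex IV subunit of the mitochondrial genome, changed by 0.68 and did not pass (edgeR adjusted p = 0.109).

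The complex I mRNAs were uneven. MT-ND4 stood at 14931, 18947 and 9065 CPM in vehicle and at 35824, 30737 and 18012 in 1.25 µM (0.98 ± 0.26, edgeR adjusted p = 0.0172), with replicate 3 of the treated arm inside the vehicle range. MT-ND5, MT-ND4L and MT-ND6 rose by 0.86, 0.85 and 0.80. MT-ND6, read from the opposite strand, was thus close to its + strand neighbour MT-ND5. Whether reads were counted by strand is not given, so MT-ND6 and + strand RNA across it cannot be told apart. MT-ND1 and MT-ND2, which lie nearest the rRNAs, changed by 0.63 and 0.62 without passing. MT-ND3 changed by 0.12 (edgeR adjusted p = 0.849), the smallest value of the 13. MT-CYB, the cytochrome b of complex III, changed by 0.88 and just missed the threshold (edgeR adjusted p = 0.0506). MT-ATP6 rose by 0.88 ± 0.25, while MT-ATP8, with which it shares 46 bases, changed by 0.60 and did not pass. A difference between these genes was not tested.

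Among 19 tRNAs tested in HuCCT1, 6 rose at 1.25 µM and none fell (9.98% of all genes rose and 8.5% fell). MT-TL2 stood at 0.601, 1.53 and 0.592 CPM in vehicle and at 4.51, 3.44 and 2.02 in 1.25 µM (1.92 ± 0.38 on the log2 scale, edgeR adjusted p = 0.00311). MT-TH, the histidine tRNA beside it, stood at 5.02, 10.0 and 4.19 against 29.6, 22.5 and 13.4 (1.79 ± 0.33, edgeR adjusted p = 0.0028). Neither overlapped. In all, 4 of the 22 tRNAs lay above vehicle without overlap, a share near the 17.2% of all genes. The separation of MT-TL2 and MT-TH is therefore not counted as a result. MT-TG (1.56), MT-TR (1.48), MT-TK (1.08) and MT-TP (0.83) rose as well, while MT-TL1 stood at 43.0, 45.7 and 17.3 in vehicle and at 48.5, 30.8 and 21.7 in 1.25 µM, with the ranges overlapping. The calls of MT-TL2, MT-TH and MT-TG stood under all 14 alternatives, while MT-TK lost its call in 8, MT-TP in 6 and MT-TR in 5. RN7SL1 and SNORD3A, which lack a poly(A) tail, stood at 1.59 to 8.25 and 0.296 to 0.529 CPM in vehicle and at 12.5 to 14.5 and 1.07 to 1.38 in 1.25 µM, and their part in the tRNA values was not tested. The number of mRNAs called rested on few libraries: it was 1 without treated replicate 1, 2 without treated replicate 2 or vehicle replicate 3, 3 without vehicle replicate 1, and 11 without treated replicate 3 or without replicate 3 of every arm. It was 0 with no filter on low counts, and 2 when only these 2 groups were fitted.

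At 10 µM sorafenib, the HuCCT1 mitochondrial mRNAs as a group stayed closer to vehicle than in the low-dose arm. The median log2 change of the 13 mRNAs was -0.24, and 1 mRNA passed the test downward (11.2% of all genes fell). It was MT-ND3, a complex I subunit, with 823, 1278 and 493 CPM in vehicle and 399, 479 and 316 in 10 µM (-1.12 ± 0.35, edgeR adjusted p = 0.0391). All 10 µM libraries were below the lowest vehicle library (17.5% of all genes). MT-RNR1, the 12S rRNA, fell from 2198, 2356 and 1308 to 1142, 1173 and 1361 CPM (-0.67 ± 0.22, edgeR adjusted p = 0.0386), although 1 treated library lay inside the vehicle range. MT-RNR2, the 16S rRNA, stood at 6469, 6664 and 9756 CPM against 10838, 11545 and 5953 in vehicle, with full overlap. Of the tRNAs, MT-TV (-2.20 ± 0.51) and MT-TD (-1.81) fell and MT-TR (1.36) rose, and of these calls that of MT-TV stood under every alternative. Of the 19 tRNAs tested, 11 had an unadjusted p under 0.05 and DESeq2 called 7. MT-TG (0.97, edgeR adjusted p = 0.0503), MT-TS1 (-1.74, edgeR adjusted p = 0.0506) and MT-TN (-1.33, edgeR adjusted p = 0.0566) came just short. The tRNAs without a call thus cannot be taken as unchanged. Leaving out vehicle replicate 3 gave 3 mRNA calls, leaving out any other library of either arm gave 0, and leaving out replicate 3 of every arm gave 5.

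Adding IACS-010759 to 1.25 µM sorafenib lowered 6 of the 13 mRNAs in HuCCT1 relative to 1.25 µM alone (6.57% of all genes fell). They included MT-CYB of complex III, both ATP synthase mRNAs, MT-CO3, MT-ND1 and MT-ND2. MT-CYB stood at 17979, 15933 and 9426 CPM in 1.25 µM and at 5435, 4548 and 4947 in the combination (-1.54 ± 0.30, edgeR adjusted p = 0.00556), 2.9-fold lower and without overlap. MT-ATP6 went from 16051, 13280 and 8522 to 5490, 4635 and 4844 CPM (-1.34 ± 0.25, edgeR adjusted p = 0.00396). MT-ND2 (-1.25), MT-CO3 (-1.24), MT-ATP8 (-1.24) and MT-ND1 (-1.08) fell by less. In all, 7 of 13 mRNAs lay below the 1.25 µM libraries without overlap, against 18.2% of all genes.

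MT-CO1, MT-CO2 and MT-ND4, which had risen most at 1.25 µM, did not pass here. MT-ATP6 passed in both comparisons, and MT-CYB, which had changed by 0.88 at 1.25 µM without passing, fell most here. MT-CO1 stood at 34229, 27853 and 28998 CPM in the combination, below the first pair of 1.25 µM libraries and around the third (-0.76, edgeR adjusted p = 0.054). MT-CO2 gave -0.80 (edgeR adjusted p = 0.0632), and MT-ND6 gave -0.41. The 2 comparisons share the 1.25 µM libraries, so their values stand side by side only. Among the tRNAs MT-TQ (-2.58 ± 0.69) and MT-TE (-1.40 ± 0.36) fell (6.57% of all genes fell), and each lost its call in 5 alternatives. MT-TQ had 25, 33 and 7 counts in 1.25 µM and 8, 2 and 5 in the combination. Of the 19 tRNAs tested, 10 had an unadjusted p under 0.05 and DESeq2 called 6. Without 1.25 µM replicate 1 or 2, or combination replicate 2 or 3, 2 mRNAs passed, and without 1.25 µM replicate 3 there were 12.

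Relative to vehicle, no mRNA passed the edgeR test in the HuCCT1 combination arm (20.1% of all genes were called; 2 mRNAs had an unadjusted p under 0.05 and DESeq2 called 0). The log2 values ran from -0.65 for MT-CYB to 0.41 for MT-CO1, the first with vehicle at 8127, 10524 and 4845 CPM, which overlapped the combination. Without vehicle replicate 3, 3 mRNAs passed, and without replicate 3 of every arm 5 did. The tRNAs differed: 5 were higher and 5 lower than in vehicle (9.94% and 10.1% of all genes). MT-TG, the glycine tRNA, stood at 2.79, 2.85 and 1.44 CPM in vehicle and 9.79, 7.60 and 9.29 in the combination (1.92 ± 0.33, edgeR adjusted p = 0.000963). MT-TS1 had 125, 49 and 18 counts in vehicle and 19, 3 and 5 in the combination (-3.03 ± 0.67), which is 0.761 to 4.42 against 0.116 to 0.600 CPM. MT-TD had 97, 44 and 31 counts against 15, 10 and 12 (-2.41 ± 0.55). In CPM none of these 3 tRNAs overlapped (20.9% of all genes lay above vehicle without overlap and 20.5% below). Of the 10 tRNA calls 5 stood under every alternative. RN7SL1, an RNA without a poly(A) tail, stood at 1.59 to 8.25 CPM in vehicle and at 14.8 to 35.6 in the combination, and its part in the tRNA values was not tested.

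In OCUG-1, 10.5% of all genes were called at 1.25 µM sorafenib (5.92% rose and 4.61% fell). No mitochondrial mRNA passed the edgeR test, 1 had an unadjusted p under 0.05 and DESeq2 called 1. On simulated counts for this comparison the test recovered 32.8% of 1.5-fold changes, so changes of that size can be missed. MT-CO3 came nearest, at 11758, 11841 and 12038 CPM in vehicle and 10323, 9147 and 8071 in 1.25 µM (-0.37 ± 0.12, edgeR adjusted p = 0.0603), the sole mRNA below vehicle in all libraries (16.8% of all genes). Neither rRNA passed (0 by an unadjusted p under 0.05 and 0 by DESeq2). MT-TL2 rose from 4.07, 4.10 and 3.99 to 9.57, 6.77 and 6.03 CPM (0.88 ± 0.23, edgeR adjusted p = 0.0205) and MT-TH from 17.1, 16.3 and 17.1 to 29.6, 20.6 and 20.5 (0.48 ± 0.15, edgeR adjusted p = 0.0463). Each was above vehicle in every library (14.9% of all genes were), and each lost its call under at least 1 alternative.

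At 10 µM sorafenib all 13 mRNAs fell in OCUG-1 (63.1% of all genes were called, 30.7% downward and 32.4% upward), and every 10 µM library lay below every vehicle library for each of them (33.4% of all genes). The median log2 change was -1.74, and MT-RNR2 rose in the same libraries. The 13 calls and that of MT-RNR2 stood under every alternative tried.

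Of the complex IV mRNAs, MT-CO2 fell from 14625, 11599 and 11889 to 3129, 2525 and 2823 CPM (-2.17 ± 0.15, edgeR adjusted p = 7.37e-10), 4.5-fold lower. MT-CO3 fell by 1.97 on the log2 scale. MT-CO1 went from 32213, 29140 and 30249 to 10616, 9702 and 9723 CPM (-1.61 ± 0.14, edgeR adjusted p = 1.23e-08), 3.05-fold lower. For complex III, MT-CYB fell from 9052, 7837 and 8559 to 2104, 1912 and 1968 CPM (-2.09 ± 0.16, edgeR adjusted p = 2.22e-09). Treated libraries of these genes kept within a narrow band.

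The complex I mRNAs covered the whole range of sizes. MT-ND3 fell from 976, 696 and 698 to 159, 152 and 194 CPM (-2.23 ± 0.20, edgeR adjusted p = 1.15e-07), 4.69-fold lower and the largest of the 13. MT-ND1 fell from 5151, 3368 and 3867 to 2819, 2165 and 2623 CPM (-0.70 ± 0.18, edgeR adjusted p = 0.00344), 1.63-fold lower and the smallest. Between these stood MT-ND6 (-1.88), MT-ND2 (-1.74), MT-ND5 (-1.42), MT-ND4 (-1.31) and MT-ND4L (-0.94). The ATP synthase mRNAs MT-ATP6 and MT-ATP8 fell together, by 1.76 and 1.66.

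MT-RNR2 rose from 14174, 11775 and 10244 to 20800, 19826 and 23491 CPM (0.82 ± 0.17, edgeR adjusted p = 0.000463), 1.77-fold higher, with no overlap (34.5% of all genes lay above vehicle without overlap). MT-RNR1, cut from the same precursor just before it, stood at 2476, 1819 and 1687 in vehicle and 2460, 2004 and 2777 in 10 µM, with overlap (0.28 ± 0.18, edgeR adjusted p = 0.198). The ratio of MT-RNR2 to MT-RNR1 counts averaged 6.09 in vehicle and 8.94 in 10 µM. MT-TL1, the tRNA printed above right behind MT-RNR2, stood at 9.88, 8.67 and 9.78 CPM in vehicle and 12.3, 15.0 and 13.6 in 10 µM (0.53 ± 0.19, edgeR adjusted p = 0.0229). It was the sole tRNA that rose, and its call was lost without vehicle replicate 2 or 10 µM replicate 2 (edgeR adjusted p up to 0.0791).

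Another 10 of the 15 tRNAs tested fell at 10 µM (30.7% of all genes fell). MT-TL2 went from 4.07, 4.10 and 3.99 to 0.731, 1.29 and 1.02 CPM (-2.00 ± 0.26, edgeR adjusted p = 2.71e-06) and MT-TH from 17.1, 16.3 and 17.1 to 4.71, 5.89 and 5.89 (-1.62 ± 0.16, edgeR adjusted p = 9.46e-08). The isoleucine tRNA MT-TI (-3.25 ± 0.63), the threonine tRNA MT-TT (-2.39), MT-TK (-1.94), MT-TR (-1.77), MT-TG (-1.46), MT-TN (-1.07), MT-TP (-0.96) and MT-TC (-0.63) fell too. MT-TI had 29, 12 and 13 counts in vehicle and 2, 2 and 3 in 10 µM. Both leucine tRNAs were thus measured in the same libraries with changes of opposite sign. The ratio of MT-TL2 to MT-TL1 counts averaged 0.431 in OCUG-1 vehicle, 0.614 in 1.25 µM, 0.0737 in 10 µM and 0.0981 in the combination.

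**Figure D2:**
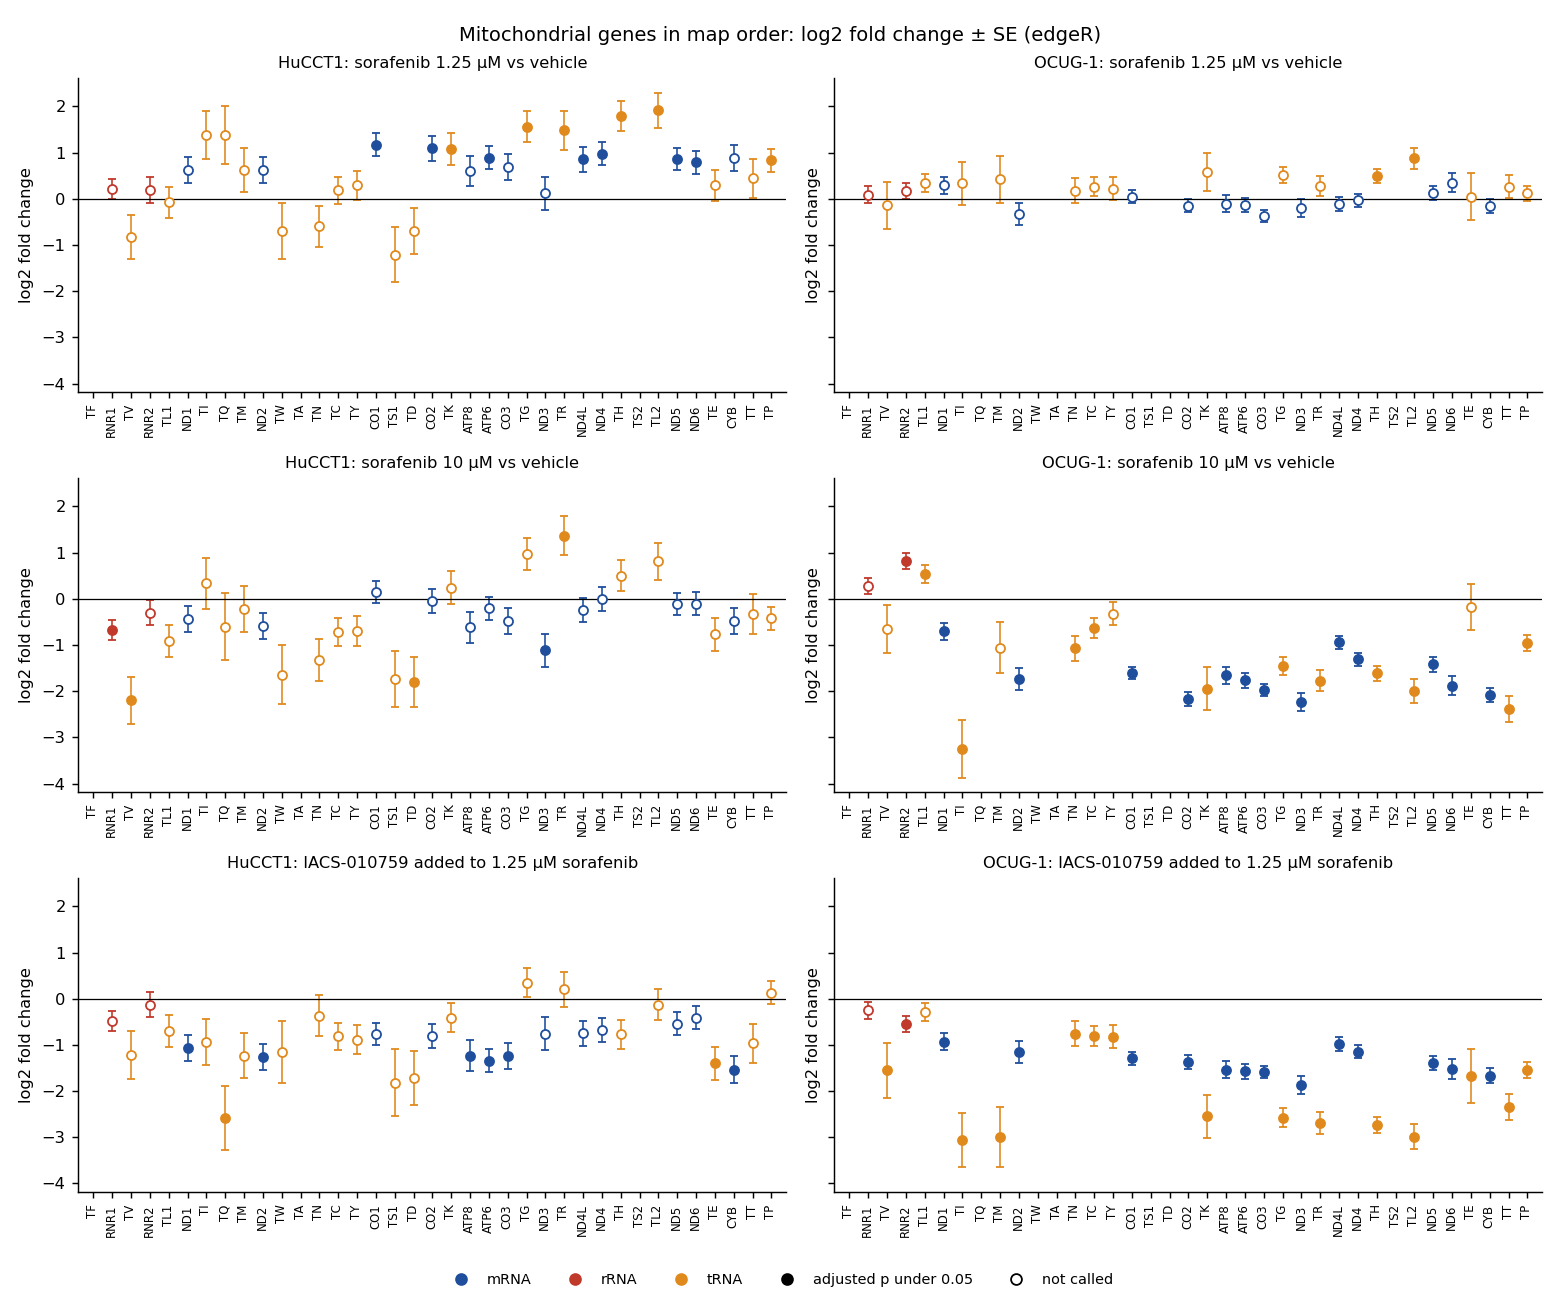
Log2 fold change with its SE for each tested gene in the order of the mitochondrial map, HuCCT1 on the left and OCUG-1 on the right, for 1.25 µM against vehicle, 10 µM against vehicle and the combination against 1.25 µM (top to bottom). Filled points passed an adjusted p of 0.05, and colours mark mRNAs (blue), rRNAs (red) and tRNAs (orange). In OCUG-1 at 10 µM all 13 mRNAs lie between -2.23 and -0.70, while MT-RNR2 lies at 0.82.

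Adding IACS-010759 to 1.25 µM sorafenib in OCUG-1 lowered all 13 mRNAs relative to 1.25 µM alone (58.1% of all genes were called, 26.7% downward), with no overlap for any of them (29.5% of all genes). The median was -1.39. MT-ND3 fell most, from 837, 610 and 622 to 150, 250 and 166 CPM (log2 change -1.87), and MT-ND1 least, from 6239, 4858 and 4105 to 2399, 3313 and 2261 (-0.93). MT-CYB went from 9565, 7023 and 6156 to 2019, 2881 and 2285 CPM (-1.66 ± 0.15), MT-CO3 changed by -1.59 ± 0.13 and MT-CO1 by -1.29 ± 0.14. Here MT-RNR2 fell as well, from 17022, 13300 and 10458 to 8264, 11434 and 8015 CPM (-0.56 ± 0.17, edgeR adjusted p = 0.0102), although the groups overlapped and the call was lost under at least 1 alternative. MT-RNR1 gave -0.25 (edgeR adjusted p = 0.247).

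Of the 15 tRNAs tested, 14 fell with the added inhibitor (26.7% of all genes fell). Of these calls 11 stood under every alternative. Some rested on few counts. MT-TI had 18, 21 and 28 in 1.25 µM and 5, 3 and 1 in the combination. MT-TM had 19, 22 and 11 against 1, 4 and 2, and MT-TV had 12, 12 and 3 against 2, 4 and 4. Genes this low in the combination passed the filter through other arms, so their falls are not independent of it. MT-TH stood at 29.6, 20.6 and 20.5 CPM in 1.25 µM and 3.77, 3.35 and 3.49 in the combination (-2.73 ± 0.17, edgeR adjusted p = 5.46e-10). MT-TL2 fell by 2.98 on the log2 scale, and the smallest changes were those of MT-TY (-0.82), MT-TC (-0.81) and MT-TN (-0.75), all of the - strand. MT-TL1 stood at 14.9, 10.7 and 10.6 CPM against 8.61, 13.5 and 7.58, overlapped, and did not pass (-0.28, edgeR adjusted p = 0.224).

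Against vehicle, the OCUG-1 combination arm again had all 13 mRNAs lower (59.5% of all genes were called, 28.1% downward), without overlap (31.7% of all genes) and with a median of -1.47. The values ran from -2.06 for MT-ND3 to -0.64 for MT-ND1 (edgeR adjusted p = 0.0074). The 13 calls of this comparison and of the one with 1.25 µM stood under every alternative tried. No rRNA passed (1 of 2 had an unadjusted p under 0.05 and DESeq2 called 1). Of the 15 tRNAs, 13 fell, and MT-TL1 (0.07) and MT-TN (-0.57, edgeR adjusted p = 0.0835) did not pass. Of the 13 tRNA calls 9 stood under every alternative, and the low combination counts of MT-TI, MT-TM and MT-TV limit this number too. The combination, 1.25 µM and 10 µM arms share the vehicle libraries, so likeness between them is not counted as a result.

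The lines were also compared through the difference of their responses, OCUG-1 minus HuCCT1, in a fit over all 24 libraries. For 1.25 µM, 3 mRNAs differed, all lower in OCUG-1 (9.65% of all genes differed, 4.69% lower and 4.96% higher): MT-CO2 (-1.22, edgeR adjusted p = 0.0209), MT-CO1 (-1.10, edgeR adjusted p = 0.017) and MT-ND4 (-0.98, edgeR adjusted p = 0.0473). MT-TH differed by -1.27 (edgeR adjusted p = 0.0284). None of these calls stood under every alternative. Leaving out 1 of the 12 libraries gave 0 mRNA calls without HuCCT1 1.25 µM replicate 1 or 2, OCUG-1 vehicle replicate 1 or OCUG-1 1.25 µM replicate 3, and 5 to 8 without HuCCT1 vehicle replicate 2, HuCCT1 1.25 µM replicate 3 or OCUG-1 1.25 µM replicate 1.

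For 10 µM, 11 of the 13 mRNAs were lower in OCUG-1 (23.1% of all genes) and both rRNAs were higher (20.7%). The mRNA differences ran from -2.20 for MT-CO2 to -1.11 for MT-ATP8. MT-ND1 (-0.34, edgeR adjusted p = 0.509) and MT-ND4L (-0.77, edgeR adjusted p = 0.0711) were the 2 that did not pass. MT-RNR2 differed by 1.06 (edgeR adjusted p = 0.0222) and MT-RNR1 by 0.88 (edgeR adjusted p = 0.0308). Of the mRNA calls 8 stood under every alternative, and of the rRNA calls none did. Among the tRNAs MT-TI (-3.65), MT-TR (-3.22), MT-TL2 (-2.88) and MT-TG (-2.50) led the 7 that were lower. MT-TI had 29, 12 and 13 counts in OCUG-1 vehicle and 2, 2 and 3 in 10 µM, so its size rests on few counts. MT-TL1 (1.37, edgeR adjusted p = 0.0151) and MT-TW were the 2 called higher, and MT-TW had no count in OCUG-1 vehicle.

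For the added inhibitor, 3 of the 13 mRNAs were lower in OCUG-1, a share near the 20.2% of all genes that were lower. They were MT-ND3 (-1.23), MT-ND6 (-1.23, edgeR adjusted p = 0.012) and MT-ND5 (-0.96). Over 18 alternatives MT-ND3 lost its call in 8 and MT-ND5 in 3, and MT-ND6 kept its call in all. Without HuCCT1 1.25 µM replicate 1 there were 6 calls, and without HuCCT1 combination replicate 1 or OCUG-1 1.25 µM replicate 1 there was 1. MT-CO1, MT-CO2 and MT-CO3, with differences between -0.68 and -0.47, did not pass. Of 19 tRNAs, 8 were lower in OCUG-1 and none higher, led by MT-TG (-3.04), MT-TR (-3.01) and MT-TL2 (-2.97). MT-TP stood at 238, 210 and 121 CPM in HuCCT1 1.25 µM and 231, 190 and 201 in its combination, but at 322, 224 and 187 and then 80.5, 98.5 and 73.6 in OCUG-1. The first pair of groups overlapped and the second did not (29.5% of all genes fell without overlap in OCUG-1), and the lines differed by -1.78.

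**Figure D3:**
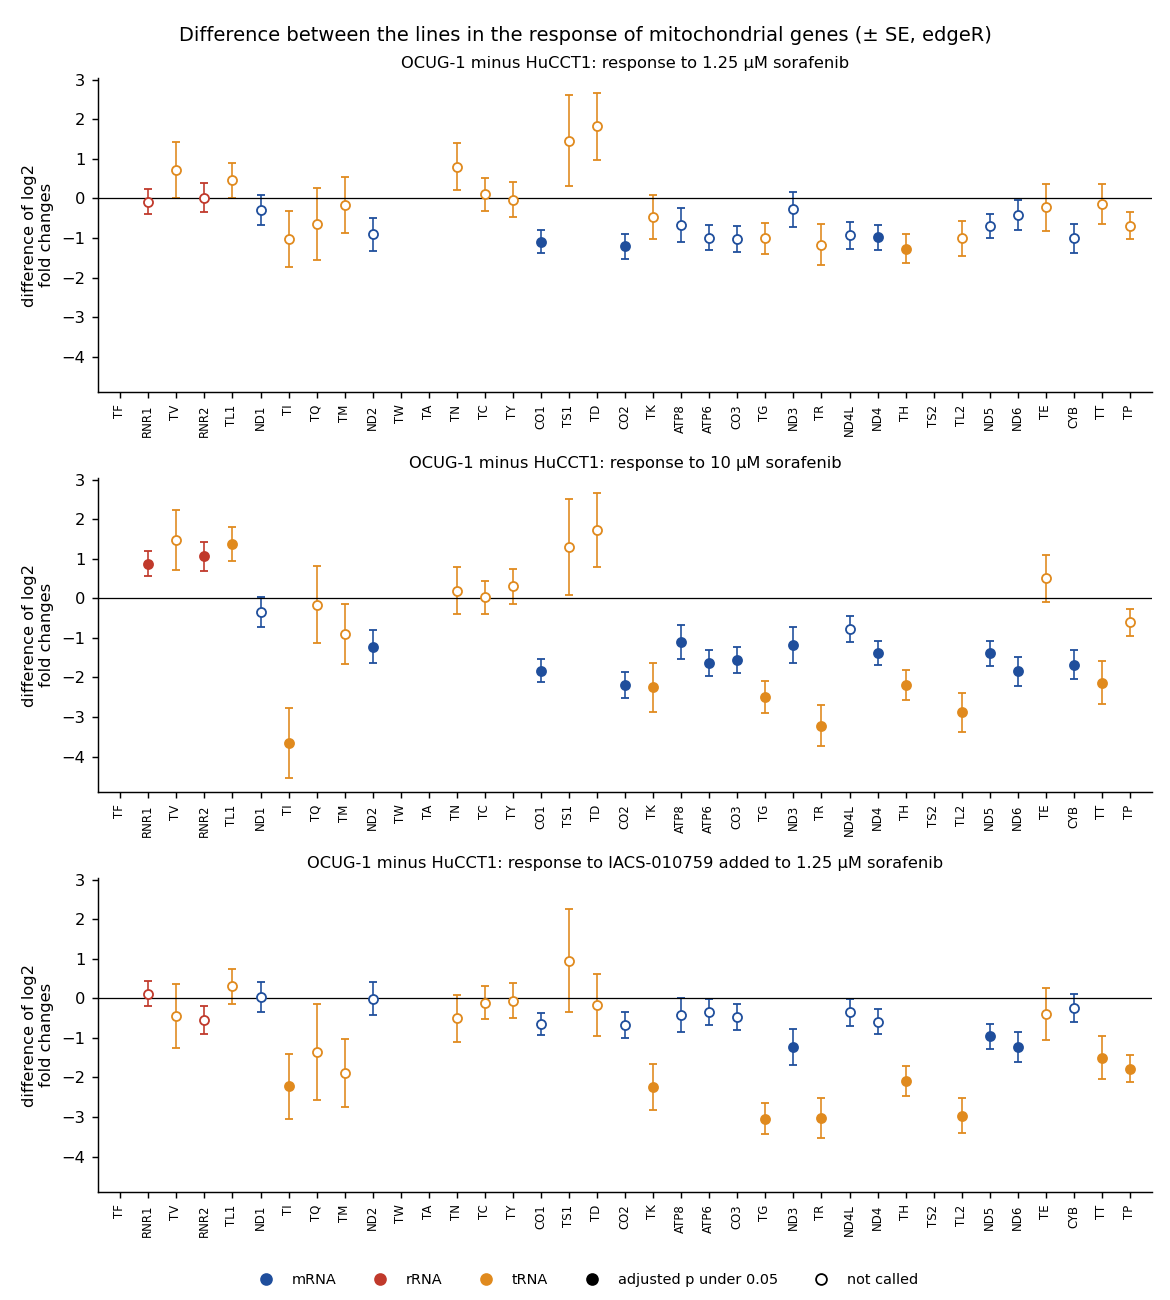
Difference in log2 fold change between the lines (OCUG-1 minus HuCCT1) with its SE for each tested mitochondrial gene in map order, for the responses to 1.25 µM sorafenib, to 10 µM sorafenib and to IACS-010759 added to 1.25 µM. Filled points passed an adjusted p of 0.05. At 10 µM the mRNAs lie below 0 while both rRNAs (0.88 and 1.06) and MT-TL1 (1.37) lie above it, and MT-TW is left out because it had no count in OCUG-1 vehicle.

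The makeup of the mRNA pool, as the percent of the 13 mRNAs' counts, also shifted and does not depend on scaling between libraries. MT-CO1 made up 22.5, 23.4 and 25.0% of the pool in HuCCT1 vehicle, 27.5, 28.1 and 28.4% in 1.25 µM, 28.4, 28.9 and 30.2% in 10 µM, and 31.6, 30.9 and 30.9% in the combination. Every treated library held more of it than every vehicle library. MT-CYB made up 8.02, 8.22 and 7.80% in HuCCT1 vehicle, 7.76, 7.99 and 7.82% in 1.25 µM, 6.90, 6.78 and 5.52% in 10 µM, and 5.02, 5.04 and 5.27% in the combination. Its share was lower without overlap in the 10 µM and combination arms.

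In OCUG-1 the share of MT-ND1 was higher in every treated arm. It made up 4.31, 3.42 and 3.69% of the pool in vehicle, 5.09, 4.90 and 4.80% in 1.25 µM, 7.51, 6.77 and 7.70% in 10 µM, and 6.68, 6.72 and 5.92% in the combination. All treated groups lay above vehicle without overlap. MT-ND4 went from 14.2 ± 0.229% to 17.9 ± 0.249% at 10 µM, and MT-ND4L from 1.57 to 2.54%, whereas MT-CO2 went from 11.8 ± 0.446% to 8.17 ± 0.241% and MT-CYB from 7.90 ± 0.301% to 5.79 ± 0.186% (SD, n = 3). In HuCCT1 MT-ND1 moved the other way, from 7.59% in vehicle to 5.60% in the combination. These shares are descriptions with no test, and they add up to a fixed total, so a higher share of one mRNA lowers others.

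**Figure D4:**
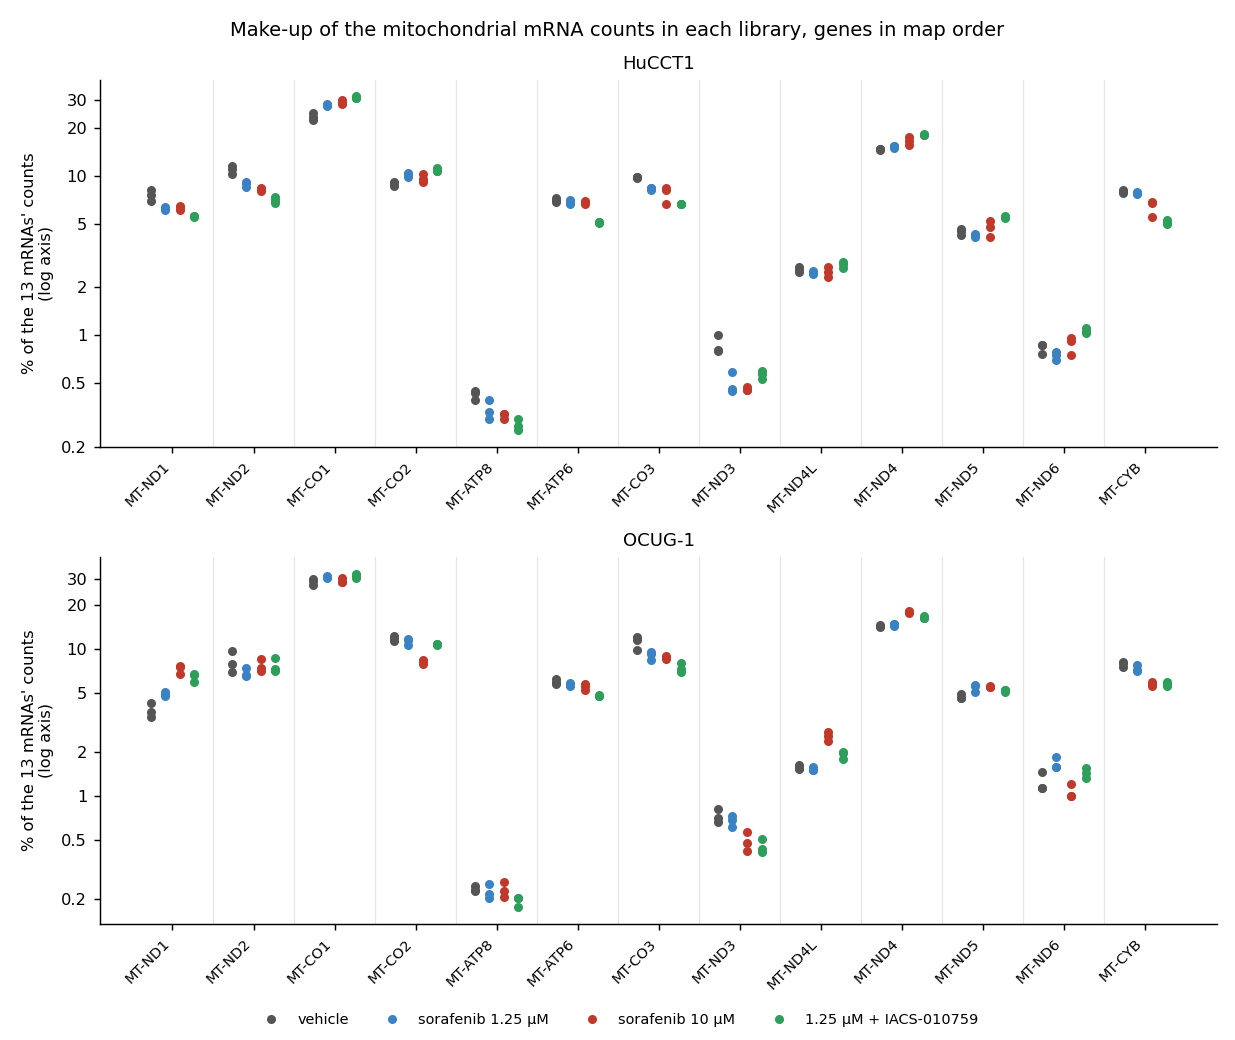
Percent of the 13 mitochondrial mRNAs' counts taken by each mRNA in each library (log axis), by arm, for HuCCT1 and OCUG-1. MT-CO1 has the highest share in every group, and MT-ND1 in OCUG-1 moves from 3.42 to 4.31% in vehicle up to 6.77 to 7.70% at 10 µM.

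The tRNA counts were small beside the mRNAs and came mostly from the - strand, although only 8 of the 22 tRNA genes lie there. The - strand tRNAs made up 77.1% to 87.1% of tRNA counts over the 24 libraries. In HuCCT1 vehicle MT-TC (31.0 to 33.6%), MT-TP (25.0 to 28.9%) and MT-TN (19.7 to 21.1%) held most of them. In OCUG-1 MT-TP alone held 47.1 to 60.7% over all arms. At 1.25 µM in HuCCT1, 5 of 12 tested + strand tRNAs and 1 of 7 tested - strand tRNAs rose (9.98% of all genes rose). At 10 µM in OCUG-1, 7 of 10 and 3 of 5 fell (30.7% of all genes fell). A difference between the strands was not tested. The sources used here do not say whether reads were counted by strand, so a - strand tRNA and the + strand RNA across it cannot be told apart.

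**Figure D5:**
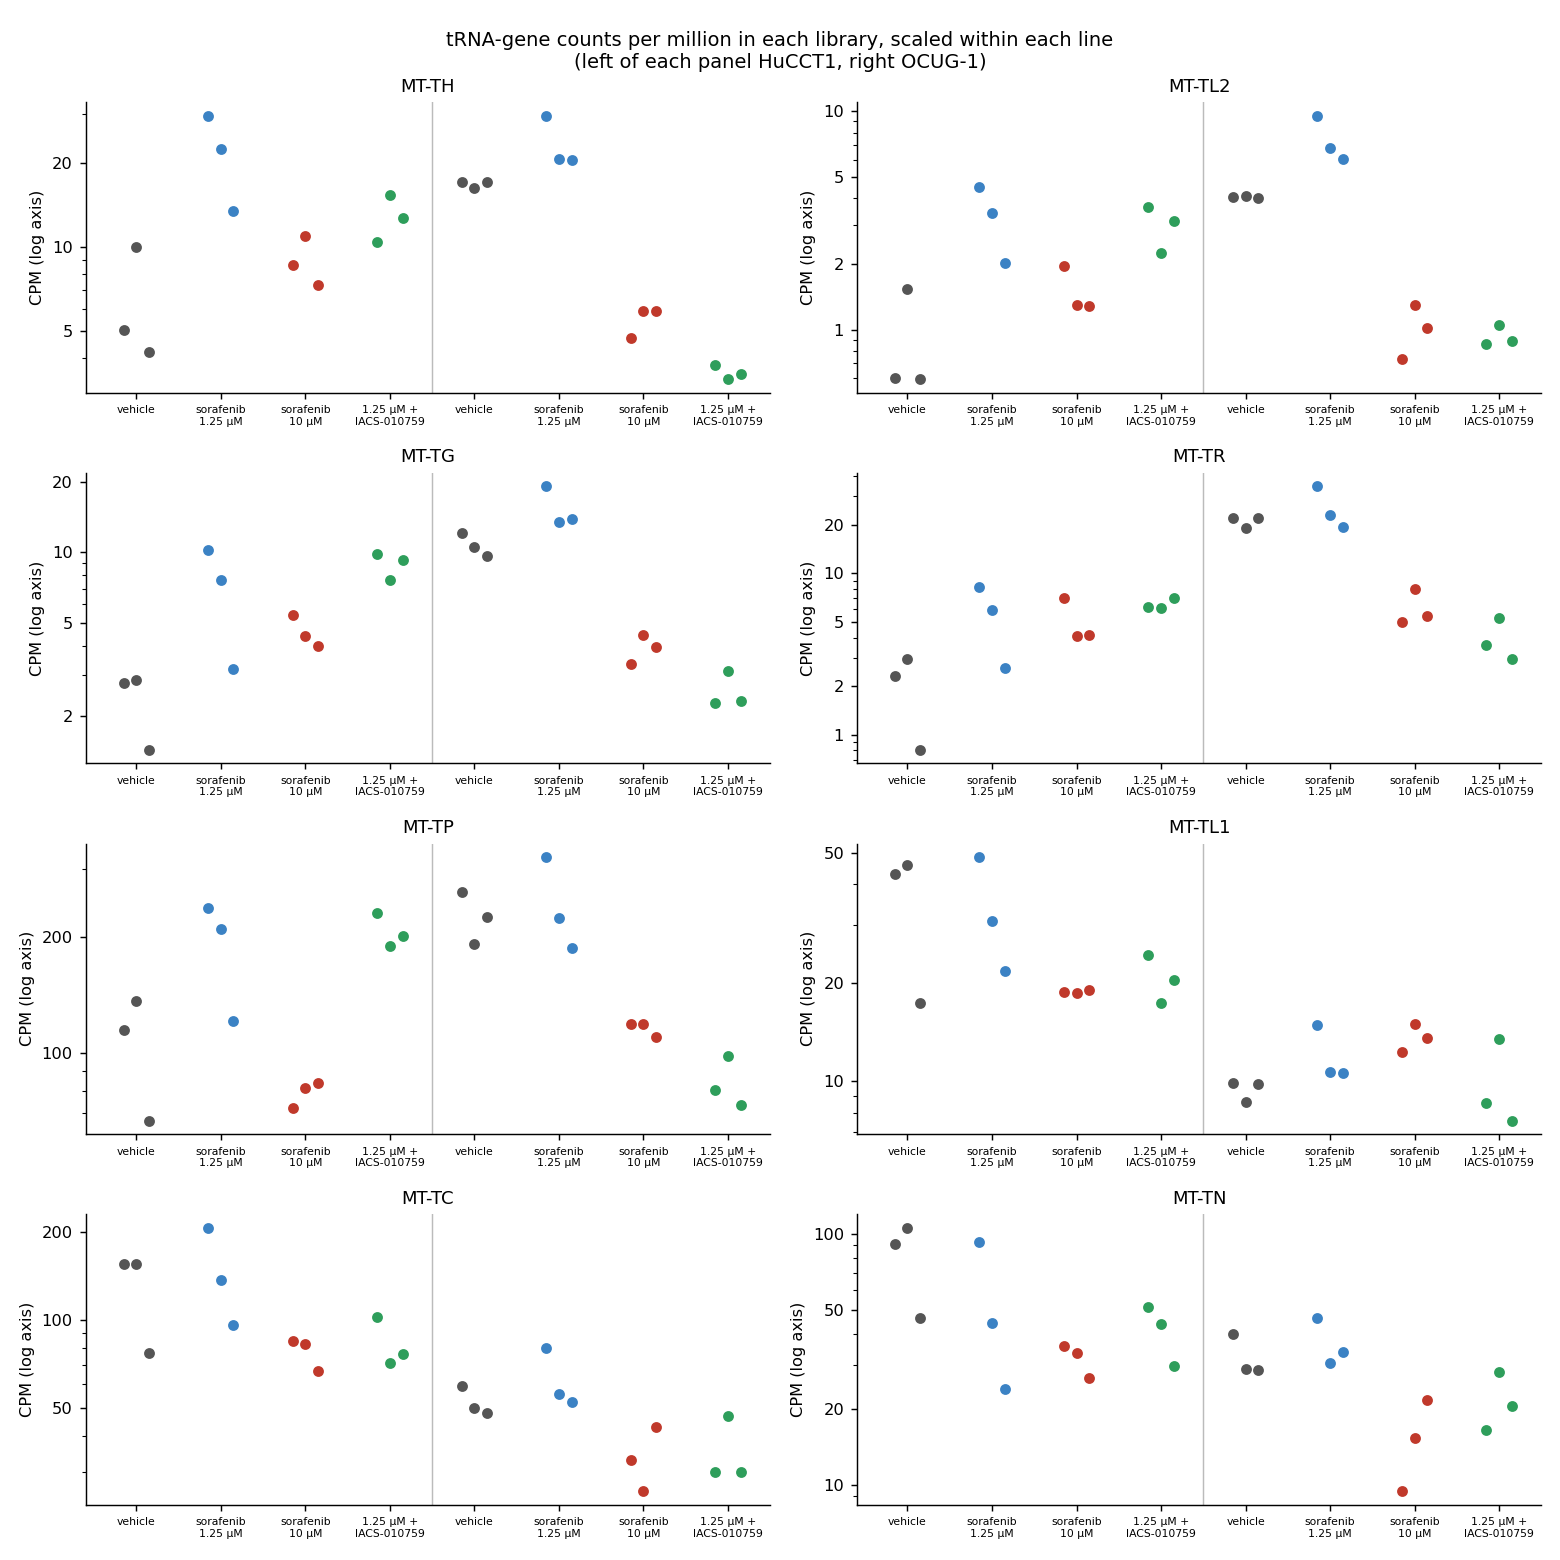
CPM (log axis, scaled within each line) of MT-TH, MT-TL2, MT-TG, MT-TR, MT-TP, MT-TL1, MT-TC and MT-TN in each library, by line and arm. MT-TL2 in OCUG-1 stands at 3.99 to 4.10 in vehicle and at 0.731 to 1.29 in 10 µM, while MT-TL1 stands at 8.67 to 9.88 and 12.3 to 15.0.

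Position along the heavy-strand transcript did not order the changes closely. Over the 12 + strand mRNAs, which come from the same libraries and partly from one precursor, Spearman's rho between start position and log2 change was 0.12 for HuCCT1 at 1.25 µM, 0.01 at 10 µM and 0.27 for the added inhibitor. In OCUG-1 it was -0.08, -0.11 and -0.43. MT-ND6, the - strand mRNA, fell in each OCUG-1 comparison in which the + strand mRNAs did. As the strand option of the counting is not given, MT-ND6 and + strand RNA across it cannot be told apart.

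Nuclear partners of these genes did not all move with them. In HuCCT1 at 1.25 µM, nuclear subunits rose in every complex, with 15 of 37 of complex I, 5 of 9 of complex III, 10 of 11 of complex IV and 11 of 17 of ATP synthase, and none fell (9.98% of all genes rose and 8.5% fell). NDUFA2, an accessory subunit of complex I, rose by 1.04 ± 0.14 (log2, edgeR adjusted p = 0.000209), and COX7A2, a subunit of complex IV, by 0.59 ± 0.098. In OCUG-1 at 10 µM, where every mitochondrial mRNA fell, complex IV had 1 of 11 nuclear subunits higher and 1 lower with a median of -0.01, and complex I had 13 of 37 higher and 8 lower with a median of 0.09. Complex III had 4 of 9 higher and none lower, and ATP synthase 6 of 17 higher and 3 lower, where 32.4% of all genes rose and 30.7% fell. With IACS-010759 added in OCUG-1, 15 of 37 complex I subunits, 4 of 9 of complex III, 10 of 11 of complex IV and 10 of 17 of ATP synthase fell, and 4 of complex I rose (26.7% of all genes fell and 31.4% rose). COX7B of complex IV fell by 0.87 (edgeR adjusted p = 1.69e-06). With it added in HuCCT1, 1 complex I subunit rose and 1 fell, and no nuclear subunit of the other complexes passed the edgeR test.

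Of 20 nuclear genes for transcription, processing and decay of mitochondrial RNA, 12 rose and 1 fell in OCUG-1 at 10 µM, with a median log2 change of 0.41 (32.4% of all genes rose and 30.7% fell). FASTKD5, which acts on mitochondrial RNA ends that tRNAs do not mark, rose by 1.45 ± 0.095 (edgeR adjusted p = 4.42e-10), and SUPV3L1, the helicase of mitochondrial RNA decay, by 1.13 ± 0.12 (log2). With the inhibitor added, 12 rose and 1 fell (31.4% of all genes rose and 26.7% fell), and FASTKD5 rose by 1.44. In HuCCT1 5 of the 20 fell when the inhibitor was added and none rose (6.57% of all genes fell and 5.06% rose). PNPT1, the ribonuclease that works with SUPV3L1, fell by 1.47 on the log2 scale (edgeR adjusted p = 7.98e-07).

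Nuclear DNA holds copies of mitochondrial genes, and how reads that match both were assigned is not given in the sources used here. The copies MTND2P28 and MTATP6P1 had 1386 to 12753 and 790 to 11356 counts over the 24 libraries. In OCUG-1 at 10 µM, 3 of 4 copies tested fell (30.7% of all genes fell): MTCO1P12 by 1.92, MTATP6P1 by 1.85 and MTND2P28 by 1.55 on the log2 scale. MTND1P23 had 1300 to 5680 counts in HuCCT1 and 3 to 36 in OCUG-1, beside the difference in MT-ND1 between the lines. Their part in the values of the mitochondrial genes was not tested.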

How the data were processed

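Total RNA of 24 libraries was extracted with TRIzol and made into TruSeq mRNA libraries that were read as 150-bp pairs on a NovaSeq, per the labels' protocols. The authors deposited whole-number read counts per gene for each line. The submitters' processing notes name fastp 1.3.2, HISAT2 2.2.2, featureCounts of Subread 2.1.1 and GRCh38. What strand option, annotation release and rule for reads with several matches were used is not given in the sources used here; these bear on genes that overlap or have nuclear copies. Extra runs are recorded for 4 OCUG-1 libraries.

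Counts were scaled by TMM, genes were kept by edgeR's filter with a minimum count of 10, and edgeR 4.0.16 (R 4.3.3) fitted a robust quasi-likelihood model to the 12 libraries of a line, or to all 24 for differences between lines, without covariates. P-values were adjusted by the Benjamini-Hochberg method over all genes tested, and 0.05 was the threshold. The SE of a log2 change is its absolute value divided by the root of the F statistic. DESeq2 1.42.0, RLE factors, library-size scaling, scaling on genes outside the mitochondrial genome, no filter, the 2 groups alone, a replicate block and leaving out each library were alternatives. Leaving out replicate 3 of all HuCCT1 arms was chosen after seeing the data. The test was checked on counts simulated with 200 changed genes, and at 2-fold it recovered 61.2% (HuCCT1 1.25 µM against vehicle, 19054 genes), 65.7% (the same in OCUG-1, 19667 genes) and 37.3% (the line difference at 1.25 µM, 21329 genes) of them, with 7.03%, 10.9% and 3.75% of calls false. Replicates of each group differed beyond counting noise (chi-square per degree of freedom 4.94 to 59.0).

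The mitochondrial genes and the gene lists were chosen with earlier results of these data known. All mitochondrial mRNAs and rRNAs were named, tRNAs were named if they passed the filter in either line, and from each nuclear list at most 2 called genes with the smallest adjusted p were named for a comparison. Nuclear copies and RNAs without a poly(A) tail were named beside results. Summed shares and ratios are given as values without a test.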

Additional observations from a re-analysis of the deposited data

Results flagged for a closer look

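Each of the following genes passed the edgeR test of the difference between the lines' responses (log2 change in OCUG-1 minus that in HuCCT1, 24 libraries). In the response to 1.25 µM sorafenib, MT-TH differed by -1.27, MT-CO2 by -1.22, MT-CO1 by -1.10 and MT-ND4 by -0.98, all on the side of a higher response in HuCCT1.

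In the response to 10 µM sorafenib the mRNA differences were -2.20 for MT-CO2, -1.84 for MT-ND6, -1.82 for MT-CO1, -1.68 for MT-CYB, -1.63 for MT-ATP6, -1.56 for MT-CO3, -1.39 for MT-ND5, -1.38 for MT-ND4, -1.22 for MT-ND2, -1.18 for MT-ND3 and -1.11 for MT-ATP8. The tRNA differences were -3.65 for MT-TI, -3.22 for MT-TR, -2.88 for MT-TL2, -2.50 for MT-TG, -2.25 for MT-TK, -2.19 for MT-TH and -2.13 for MT-TT. On the opposite side stood MT-RNR1 with 0.88, MT-RNR2 with 1.06 and MT-TL1 with 1.37. MT-TW gave a fitted 6.27, which depends on the prior count because its OCUG-1 vehicle libraries were all at 0, and is no bound.

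In the response to IACS-010759 added to 1.25 µM sorafenib, MT-TG differed by -3.04, MT-TR by -3.01, MT-TL2 by -2.97, MT-TK by -2.25, MT-TI by -2.23, MT-TH by -2.08, MT-TP by -1.78 and MT-TT by -1.50. The mRNAs that differed were MT-ND3 by -1.23, MT-ND6 by -1.23 and MT-ND5 by -0.96.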

How the results depend on the processing

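No value changed sign where it had been called. In OCUG-1, all 13 mRNAs were called at 10 µM and in the combination (against vehicle and 1.25 µM) under every alternative, and from 13 to 13 without any 1 library. The other counts of called mRNAs moved, and the cause was not tested. With no low-count filter the count became 0 for HuCCT1 1.25 µM (7 in the report), 10 µM (1), combination against 1.25 µM (6) and the line difference at 1.25 µM (3), and 1 for OCUG-1 1.25 µM (0) and the line difference for the inhibitor (3). DESeq2 gave 10 for the HuCCT1 combination against 1.25 µM, 1 for OCUG-1 1.25 µM and 7 for the line difference at 1.25 µM. Library size alone as the scale gave 1 for OCUG-1 1.25 µM, and 5 for the vehicle arms of the lines (3) and the line difference at 1.25 µM; it shifted the median of all genes by -0.145 for HuCCT1 1.25 µM, 0.187 for its combination and 0.151 for that of OCUG-1. Fitting only the 2 groups gave 2 for HuCCT1 1.25 µM and 1 for OCUG-1 1.25 µM. A replicate block gave 11 for HuCCT1 1.25 µM, 10 for its combination against 1.25 µM and 1 against vehicle (0), and 7 and 6 for the line differences at 1.25 µM and for the inhibitor. The labels do not tie equal replicate numbers together, and the lowest correlation of same-numbered libraries was -0.271 in HuCCT1 and -0.361 in OCUG-1; 5 of 12 and 4 of 12 libraries correlated best with their own number. Without replicate 3 of all HuCCT1 arms, a choice made after seeing the data, HuCCT1 had 11 calls at 1.25 µM, 5 at 10 µM, and in the combination 12 against 1.25 µM and 5 against vehicle. Without 1 library at a time, calls ran from 1 to 11, 0 to 3, 2 to 12 and 0 to 3 in these comparisons, from 0 to 1 for OCUG-1 1.25 µM, 3 to 4 for the vehicle arms, and 0 to 8, 8 to 12 and 1 to 6 for the line differences at 1.25 µM, 10 µM and for the inhibitor.

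The log2 difference of the mRNA to rRNA ratio became 0.59 with the mean of log2 counts for HuCCT1 1.25 µM (0.74), -0.64 for its combination against 1.25 µM (-0.73), and -2.21, -0.98 and -1.18 for OCUG-1 at 10 µM (-2.41) and in the combination against 1.25 µM (-0.81) and vehicle (-1.04). With MT-RNR1 alone as the rRNA it was 0.50 for HuCCT1 10 µM (0.20), -0.43 and 0.30 for the HuCCT1 combination against 1.25 µM and vehicle (0.01), and -1.92, -1.06 and -1.24 for the same OCUG-1 comparisons, and with MT-RNR2 alone -0.79 for the HuCCT1 combination against 1.25 µM. Without 1 library at a time it ran from 0.68 to 0.80, -0.03 to 0.52, -0.75 to -0.71 and -0.06 to 0.06 in HuCCT1 (1.25 µM, 10 µM, combination against 1.25 µM and vehicle), and from -0.28 to -0.14, -2.48 to -2.31, -0.85 to -0.77 and -1.09 to -0.95 in OCUG-1. The 3 libraries in each group limit the precision, tRNA values rest on few counts, and IACS-010759 was never given alone.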
